A study of Mus musculus with 26 samples.

Results

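The 7 genes described here encode proneural and early neuronal transcription factors: Neurog1, Neurog2, Neurod1, Neurod4, Nhlh1, Myt1 and Insm1. They were taken by name from the deposited tables, and each name matched 1 of the 55141 genes counted. The data are read counts from polyadenylated RNA of mouse gastruloids, elongating aggregates made from embryonic stem cells that form derivatives of the trunk. The 26 libraries fall into 15 groups of line and stage, and 8 of these groups hold 1 library. Total counts per library ran from 18746411 to 37716547.

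Every line carries HoxB Del/Del(i9-13), so no group has an unedited HoxB cluster. Line Del has no further edit, and line Ins adds Ins(CBS5-10). InsDel5to10, InsDel7to10 and InsDel8to10 are Ins lines with Del(CBS5-10), Del(CBS7-10) and Del(CBS8-10). Inv(CBS5-10) was added to Ins in the clones InvClone1 (clone 1) and InvClone2 (clone 2). In InvDel7to10, Ins has both Inv(CBS5-10) and Del(CBS7-10). No treatment is labelled. Stage is given in hours after aggregation. At 120h there were 2 libraries each of InsDel5to10, InsDel7to10 and InvClone2, 4 of InvClone1, 3 each of Ins and Del, and a single library of InsDel8to10 and of InvDel7to10. The 144h stage had 2 of InvClone1 and 1 each of InsDel8to10, InvDel7to10, Ins and Del, and InvClone1 alone was also sampled at 96h and 168h. The alleles were taken from the labels and were not checked against the reads. A clone is numbered only for the inverted segment, so every other allele is represented by 1 line. How many gastruloids made up a library is not labelled.

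The labels also give a library name, which is ISML_first for 4 libraries, ISML_second for 10, ISML_third for 10 and TruSeq_second for 2. Replicate 2 of InvClone1 at 144h (ISML_second) stood apart with 0.0864% of counts in mitochondrial genes, against 0.587% to 1.51% in the other 25. Replicate 2 of InvClone1 at 120h (TruSeq_second) had counts in 54.8% of genes, against 37.5% to 43.4% in the others. Neural progenitor, somite and tailbud markers were all present at both main stages, with summed levels given beside the results below.

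Proneural factors are basic helix-loop-helix proteins that commit dividing neural progenitors to become neurons. They bind the E-box sequence CANNTG together with the broadly expressed E proteins encoded by Tcf3 and Tcf12, and they switch on the Notch ligand Dll1, through which a differentiating cell holds its neighbours in the progenitor state by way of Hes genes. In the neural tube Neurog1 and Neurog2 act early, and the helix-loop-helix genes Neurod1, Neurod4 and Nhlh1 follow in cells that are leaving the cell cycle. Myt1 and Insm1 encode zinc finger proteins, Myt1 making cells less sensitive to Notch signalling and Insm1 acting in basal progenitors and newborn neurons. Neurod1, Myt1 and Insm1 are also used in endocrine cells of the gut and pancreas, so the markers of those cells are given beside the results.

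The genes lie on 5 chromosomes, in mm10 coordinates of the deposited table. Neurog1 is at chr13:56250478-56252163, Neurog2 at chr3:127633135-127635631, Neurod4 at chr10:130268152-130280240 and Nhlh1 at chr1:172052292-172057573. The other 3 are on chromosome 2, where Neurod1 is at chr2:79452521-79456751, Insm1 at chr2:146221921-146225020 and Myt1 at chr2:181763332-181827797.

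Because the 7 genes moved together with stage, the 250 bases before each RefSeq gene start (GRCm38.p6) were searched for the E-box CANNTG on both strands and for TATAA on the gene's strand. RefSeq windows were at hand for 6 of the 7 genes, 9 windows in all. No E-box was found in the windows of Neurog1, Neurog2 and Neurod4 or in the most upstream of the 3 Myt1 windows, while 66.2% of all 32851 windows of that length hold one. Neurod1 holds CATATG 242 bases before its start, a variant found in 3.46% of windows, and Nhlh1 holds CAGATG 203 bases before its start, found in 14.4%. The other Myt1 windows hold CATTTG (191 and 129 bases before the start) and CATGTG (114 bases before it). A TATAA run lies 27 bases before the start of Neurog2 and 29 before that of Neurod1, and 3.89% of windows hold one between 45 and 16 bases before the start. Those 3 windows are shown because they hold these matches, and that of Neurod4 because it has neither and belongs to the member with the highest FPKM at 168h. Capitals mark the matches, which are descriptions of letters and not binding sites. The windows are Neurog2 on the plus strand (chr3:127632886-127633135) and Neurod1 (chr2:79456637-79456886), Nhlh1 (chr1:172057597-172057846) and Neurod4 (chr10:130280255-130280504) on the minus strand, each written 5′ to 3′ on the gene's strand.
Neurog2: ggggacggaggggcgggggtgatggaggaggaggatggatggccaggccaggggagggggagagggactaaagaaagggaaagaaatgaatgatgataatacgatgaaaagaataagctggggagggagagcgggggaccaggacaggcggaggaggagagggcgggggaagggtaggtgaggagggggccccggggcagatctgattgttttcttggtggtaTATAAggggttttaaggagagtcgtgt
Neurod1: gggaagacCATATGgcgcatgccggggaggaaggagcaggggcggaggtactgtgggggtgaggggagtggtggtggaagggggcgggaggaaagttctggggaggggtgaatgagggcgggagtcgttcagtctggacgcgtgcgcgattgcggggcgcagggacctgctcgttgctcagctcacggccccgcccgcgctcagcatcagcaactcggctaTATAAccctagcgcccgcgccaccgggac
Nhlh1: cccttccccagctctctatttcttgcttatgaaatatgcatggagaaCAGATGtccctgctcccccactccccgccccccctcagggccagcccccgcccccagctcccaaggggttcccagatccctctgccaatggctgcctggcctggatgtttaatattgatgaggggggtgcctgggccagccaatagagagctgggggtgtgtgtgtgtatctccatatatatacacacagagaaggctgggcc
Neurod4: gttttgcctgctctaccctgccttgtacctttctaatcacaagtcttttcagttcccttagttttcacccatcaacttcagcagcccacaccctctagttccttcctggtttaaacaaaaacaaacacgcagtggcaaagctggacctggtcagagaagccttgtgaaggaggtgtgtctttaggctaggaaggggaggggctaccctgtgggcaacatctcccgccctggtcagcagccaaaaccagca

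All 7 genes were lower in every library up to 120h than in any library at 144h or 168h. Levels below are CPM, read counts relative to library size, scaled to the TMM-adjusted library size, and a gene with no count in a library could have had up to 3 counts, or 0.0778 to 0.165 CPM. The later stages had 7 libraries and the earlier ones 19. Of the 17769 genes tested over all libraries, 2.63% did not overlap between these libraries, 1.9% being higher and 0.737% lower. The margin was widest for Nhlh1, with 4.92 CPM in the lowest later library and 0.494 CPM in the highest earlier one. It was narrowest for Neurod1, with 1.405 CPM in InvClone1 at 144h (replicate 2) and 1.213 CPM in Del at 120h (replicate 1).

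**Figure D1:**
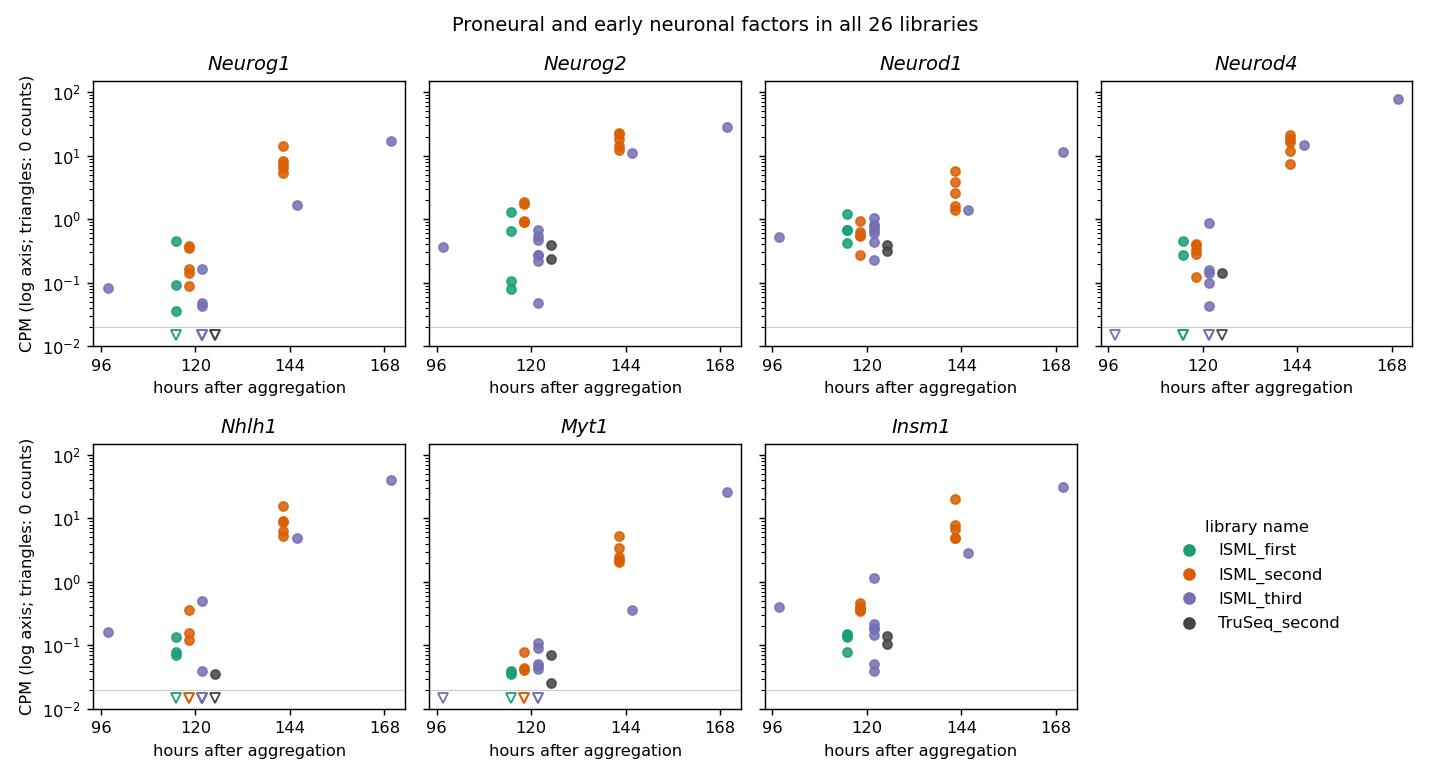
Levels of the 7 genes in all 26 libraries, in CPM on a log axis against hours after aggregation; each point is 1 library, coloured by library name and shifted sideways by it, and open triangles are libraries with 0 counts. In every panel the 144h and 168h points lie above all 96h and 120h points, by the least in Neurod1.

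The stage difference was tested in the 5 lines that have an ISML_second library at both stages, with line as a block (edgeR quasi-likelihood test, Benjamini-Hochberg adjustment over 16043 genes, threshold 0.05). All 7 genes rose at 144h, each in 5 of 5 lines, with log2 fold changes from 2.29 to 6.29. Of all genes tested, 15.1% passed in either direction, 9.33% higher and 5.81% lower, and the median log2 fold change over all genes was -0.01. In this fit 2 of the 7, Neurog2 and Neurod1, reached the filter on low counts by their 120h libraries, and the other 5 passed it only with their 144h libraries. In bulk RNA, more cells of a type and more RNA per cell cannot be told apart. Whether the libraries are separate cultures is not labelled, and the spread that the p-values rest on may be technical.

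Both neurogenins, the early acting proneural genes, rose in every line, Neurog1 by the larger fold. Neurog2 had 494, 396, 271, 292 and 510 counts at 144h in InsDel8to10, InvDel7to10, InvClone1, Ins and Del, against 20, 19, 48, 20 and 43 counts in the same lines at 120h. Its level averaged 17.9 ± 4.61 CPM at 144h and 1.27 ± 0.492 CPM at 120h (SD, n = 5 lines each), a log2 fold change of 3.82 ± 0.23 (SE, edgeR adjusted p = 5.37e-05). The stages did not overlap, and the counting ratio of 144h over 120h ran from 7.61 in InvClone1 to 25.4 in InsDel8to10. Neurog1 had 316, 178, 143, 126 and 146 counts at 144h and 2, 8, 9, 3 and 4 counts at 120h in the same order of lines. Its mean was 8.35 ± 3.56 CPM at 144h and 0.224 ± 0.131 CPM at 120h, with a log2 fold change of 5.16 ± 0.32 (edgeR adjusted p = 5.83e-05). Neurog1 thus had fewer than 10 reads in each of the 5 lines at 120h and at least 126 at 144h.

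Among the helix-loop-helix genes that follow the neurogenins, Neurod4 and Nhlh1 rose most and Neurod1 least. Neurod4, a factor of differentiating neural precursors, had 460, 362, 142, 279 and 417 counts at 144h in InsDel8to10, InvDel7to10, InvClone1, Ins and Del, against 9, 6, 10, 7 and 3 at 120h. The means were 15.0 ± 5.40 CPM at 144h and 0.304 ± 0.112 CPM at 120h, with a log2 fold change of 5.56 ± 0.29 (edgeR adjusted p = 3.21e-05). Nhlh1, expressed for a short time in newborn neurons, had 338, 188, 100, 147 and 207 counts at 144h and 8, 0, 4, 0 and 3 at 120h in the same lines. Its log2 fold change of 6.09 ± 0.39 (edgeR adjusted p = 6.46e-05) placed it 7th among all genes by size of rise. Against the InvDel7to10 and Ins libraries at 0, a floor of 3 counts per library makes the 144h level at least 60.8-fold higher in InvDel7to10 and at least 44.2-fold higher in Ins.

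Neurod1, which promotes neuronal survival and differentiation, was the exception at the low end. It had 127, 84, 27, 38 and 59 counts at 144h in InsDel8to10, InvDel7to10, InvClone1, Ins and Del, and 12, 13, 7, 12 and 23 counts at 120h. The mean was 3.05 ± 1.82 CPM at 144h and 0.584 ± 0.239 CPM at 120h, a log2 fold change of 2.29 ± 0.32 (edgeR adjusted p = 0.00205). Within a line the ratio of 144h over 120h was 10.9 in InsDel8to10 (95% counting interval 6.01 to 21.6) and 2.73 in Del (1.66 to 4.63). With 1 library per line and stage, the difference between lines in this ratio was not tested.

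The zinc finger genes rose as well, Myt1 from almost no reads. Myt1 had 115, 54, 65, 52 and 47 counts at 144h in InsDel8to10, InvDel7to10, InvClone1, Ins and Del, and 1, 0, 2, 0 and 1 counts at 120h. Its log2 fold change of 6.29 ± 0.39 (edgeR adjusted p = 5.38e-05) was the 6th largest rise of all genes, and it rests on 4 counts in 5 libraries at 120h. Insm1 had 443, 146, 96, 116 and 179 counts at 144h and 9, 8, 9, 10 and 9 counts at 120h, the most even 120h values of the 7. Its means were 8.92 ± 6.42 CPM at 144h and 0.393 ± 0.0468 CPM at 120h, with a log2 fold change of 4.36 ± 0.29 (edgeR adjusted p = 7.40e-05). In none of the 11 alternatives tried did any of the 7 lose its call or its direction. Leaving out 1 line at a time changed how many of all genes passed, 1424 without InsDel8to10, 1473 without InvDel7to10, 1463 without Del and 4934 without InvClone1, against 2429 with all 5 lines, while 7 of 7 members passed each time.

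**Figure D2:**
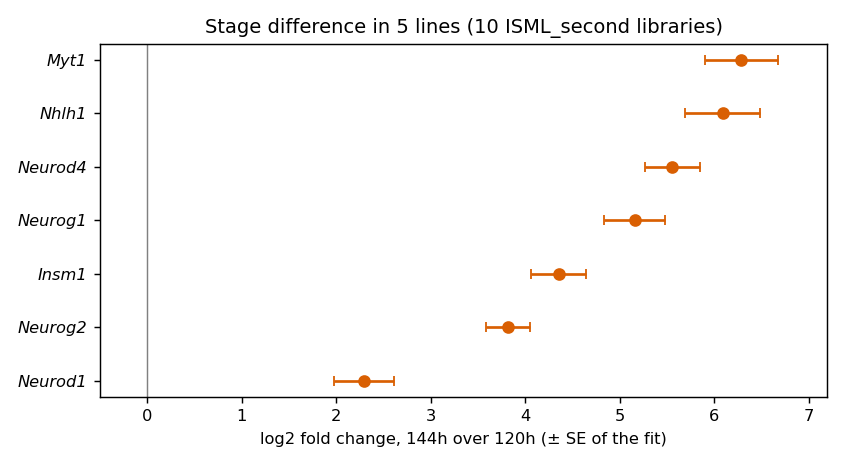
Log2 fold change of each gene at 144h over 120h in 5 lines, with the standard error of the edgeR fit as bars; rows are genes ordered by fold change. Myt1 (6.29) and Nhlh1 (6.09) lie farthest right and Neurod1 (2.29) closest to 0, and all 7 lie above 0.

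The companions of these genes in the neurogenic pathway were more mixed. Of 13 other proneural or early neuronal factors tested, 7 rose, 1 fell and 5 did not pass, with a median log2 fold change of 0.87 against -0.01 over all genes. Those that rose included Scrt2 (4.61 ± 0.30, adjusted p = 6.94e-05), Neurog3 (3.54 ± 0.27, adjusted p = 0.00012) and St18 (5.35 ± 0.42, adjusted p = 0.000142). Neurog3 is the third neurogenin and the endocrine one, and St18 a relative of Myt1. Ebf3 was the one that fell. Atoh1, Neurod2, Neurod6, Myt1l and Insm2 were too low to test. Among their values, Neurod2 had 0 counts in the 5 libraries at 144h and 0 at 120h, which allows up to 3 counts in each set, and Myt1l had 7 counts at 144h and 6 at 120h.

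The Notch ligands and receptors, through which proneural genes act on neighbouring cells, moved in both directions. Of 15 tested, 6 rose, 3 fell and 6 did not pass (median log2 fold change 0.06). Dll1, the ligand that proneural factors activate, fell by 1.03 ± 0.07 on the log2 scale (adjusted p = 9.27e-05), and Dll3 fell by 1.92 ± 0.13 (adjusted p = 8.63e-05). Both genes are also expressed in presomitic mesoderm, whose markers fell. Of 9 presomitic and somite markers, 8 fell and 1 rose, with a median log2 fold change of -1.52, and all 7 tailbud markers fell, with a median of -1.64. The summed presomitic and somite level was 468 to 583 CPM at 144h and 911 to 1041 CPM at 120h over the 5 lines. The part of presomitic cells in the fall of Dll1 and Dll3 was not tested. Dll4 rose by 1.54 ± 0.17 (adjusted p = 0.000684) and Mfng, which modifies Notch receptors, by 1.33 ± 0.13 (adjusted p = 0.000379).

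Of 12 Notch targets and antagonists of proneural factors, 4 rose, 1 fell and 7 did not pass (median log2 fold change 0.22). Hes5, the Notch target of neural progenitors, rose by 2.05 ± 0.15 (adjusted p = 0.000114), and the Id genes, which sequester E proteins, rose in 3 cases: Id4 by 1.84 ± 0.15, Id3 by 1.03 ± 0.12 and Id1 by 0.74 ± 0.10. Hes7, the oscillating Hes gene of presomitic mesoderm, was the one that fell. Among 13 genes of the proneural output and of cell cycle exit, 5 rose, none fell and 8 did not pass (median 0.34, with 9 of 13 at an unadjusted p under 0.05). Of all 16043 genes tested between stages, 4608 had an unadjusted p under 0.05. Dcx, the microtubule protein of migrating neurons, rose by 5.55 ± 0.36 (adjusted p = 6.46e-05), the neuronal splicing regulator Srrm4 by 2.73 ± 0.21 (adjusted p = 0.000121), Rnd2, which Neurog2 activates in migrating cortical neurons, by 1.11 ± 0.15 (adjusted p = 0.00183), and the cell cycle inhibitor Cdkn1c by 1.75 ± 0.28 (adjusted p = 0.00425). The E protein genes Tcf3 (0.19 ± 0.13, adjusted p = 0.39) and Tcf12 (-0.16 ± 0.12, adjusted p = 0.445) did not pass.

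Markers of the cells in which these factors act were also higher at 144h. Of 12 neural progenitor markers 11 rose and 1 (Pax3) fell, with a median log2 fold change of 1.93, among them Sox1 (1.91 ± 0.09), Pax6 (2.98 ± 0.15), Sox2 (1.58 ± 0.09) and Fabp7 (2.58 ± 0.14). Of 15 early neuron markers 13 rose, 1 (Lhx1) fell and 1 (Nefl) did not pass, with a median of 1.45, among them Pou3f2 (3.73 ± 0.08), Elavl3 (4.25 ± 0.21), Onecut1 (2.88 ± 0.16) and Tubb3 (2.08 ± 0.14). The summed progenitor level was 645 to 1353 CPM at 144h and 314 to 376.7 CPM at 120h, and the summed early neuron level 250 to 494 CPM at 144h and 135 to 173 CPM at 120h. The 7 members summed to 43.9 to 104.6 CPM at 144h and 2.44 to 3.51 CPM at 120h. Averaged over the 5 lines, these sums were 65.2 CPM at 144h and 2.93 CPM at 120h for the members, 1002 and 344 CPM for the progenitor markers and 342 and 149 CPM for the early neuron markers. The part of neural cell number in the members' rise was not tested.

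Markers of other tissues that use these factors changed as well. Of 10 endocrine and gut markers tested 6 rose and 1 (Sox17) fell, and the sum was 207 to 233 CPM at 144h and 148 to 202 CPM at 120h. Ghrl, the ghrelin gene of enteroendocrine cells, rose by 5.73 ± 0.42 (adjusted p = 0.000104) to 1.78 to 4.16 CPM at 144h, and the pancreatic and duodenal factor Pdx1 by 3.36 ± 0.30 (adjusted p = 0.000243) to 1.30 to 2.51 CPM. In the other InvClone1 library at 144h (replicate 1, ISML_third) the sum was 74.1 CPM, Ghrl and Pdx1 had 1 count each and Pax4 had 0. The members had 38 counts of Neurog1, 249 of Neurog2, 32 of Neurod1, 335 of Neurod4, 111 of Nhlh1, 8 of Myt1 and 64 of Insm1 there. The part of endocrine and gut cells in the members' rise was not tested. Of 8 neural crest and sensory ganglion markers tested, 3 rose, among them Prdm12 by 4.2 ± 0.47 and Pou4f1 by 0.54 ± 0.15, and 2 fell, among them Eya1 by 0.78 ± 0.12. The summed level of the whole crest and ganglion list was lower at 144h, 238 to 302 CPM against 320 to 400 CPM at 120h. Sox10 and Foxd3, the defining crest factors, had 39 and 9 counts over the 5 libraries at 144h and 16 and 17 counts at 120h.

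InvClone1 was the line followed from 96h to 168h, with 1 library per stage named ISML_third, so its course is a description without a test. None of the 7 genes had more than 13 counts at 96h or at 120h, and each had its highest value of the series at 168h. The share of all genes that were highest in the 168h library was not counted. Neurog2 had 9, 6, 249 and 786 counts at 96h, 120h, 144h and 168h. Neurod4 had 0, 0, 335 and 2164 counts. The increase after 144h was unequal, by 2.54-fold in Neurog2 (95% counting interval 2.2 to 2.94), 5.20-fold in Neurod4 (4.63 to 5.85), 8.02-fold in Neurod1 (5.57 to 11.9), 8.15-fold in Nhlh1 (6.70 to 9.99), 10.1-fold in Neurog1 (7.24 to 14.4), 11.2-fold in Insm1 (8.66 to 14.6) and 72.6-fold in Myt1 (36.7 to 169). The interval of Neurog2 lies below, and that of Myt1 above, all the others, but these intervals cover counting error only. At 144h Myt1 had 0.355 CPM (8 counts) in this library and 3.38 CPM (65 counts) in InvClone1 replicate 2 (ISML_second). Neurog1 had 1.69 and 7.44 CPM in the same libraries, and Neurod4 14.9 and 7.39 CPM. The order of the increases therefore depends on which 144h library is used.

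The remaining 5 genes had 0 to 13 counts in these libraries up to 120h. Neurog1 had 2, 0, 38 and 476 counts at 96h, 120h, 144h and 168h, Nhlh1 4, 0, 111 and 1124, and Insm1 10, 4, 64 and 888. Neurod1 had 13, 5, 32 and 319 counts, and Myt1 0, 2, 8 and 722. For Myt1 alone the 144h level in this library (0.355 CPM) was not above that at 120h by more than counting error, with a ratio of 3.84 and a counting interval of 0.767 to 37.1. Summed early neuron markers in these libraries were 179, 105, 188.5 and 1089 CPM at 96h, 120h, 144h and 168h, and progenitor markers 160, 259, 691.5 and 1214 CPM. Tailbud markers summed to 634, 373, 97.4 and 44.15 CPM at the same stages.

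**Figure D3:**
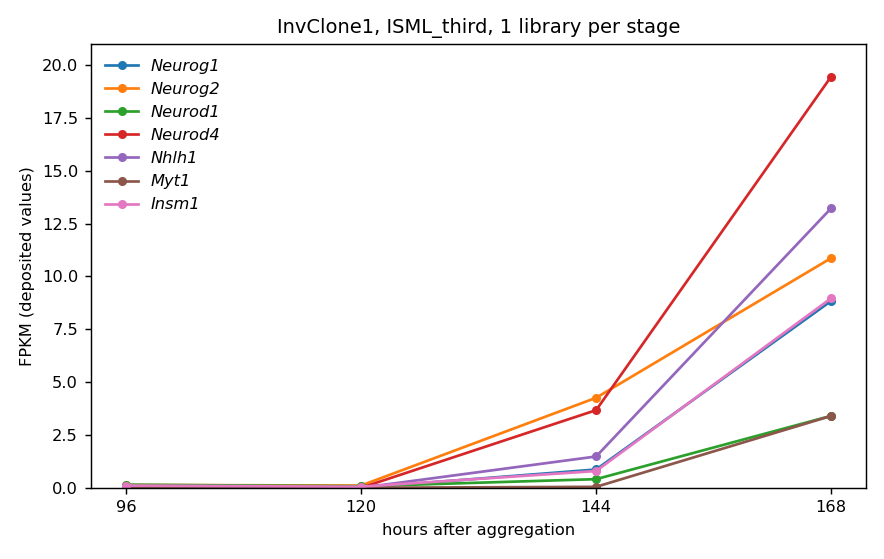
Deposited FPKM values of the 7 genes in the ISML_third libraries of InvClone1 against hours after aggregation, 1 library per stage joined by lines. Neurog2 is the top line at 144h (4.26) and Neurod4 at 168h (19.5), with Nhlh1 second at 168h (13.2) and Neurod1 and Myt1 lowest (3.40 each).

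Levels of different genes were compared only in the authors' FPKM values, which are scaled by transcript length. In all 6 libraries at 144h Neurog2 ranked first of the 7, with 25.2% to 37.99% of their summed FPKM, and Neurod1 and Myt1 held the last places. In the InvClone1 library at 168h the order was Neurod4 (19.5 FPKM), Nhlh1 (13.2), Neurog2 (10.9), Insm1 (8.97), Neurog1 (8.84), and Neurod1 and Myt1 (3.40 each). In its ISML_third libraries the share of Neurog2 in the summed FPKM was 15.9% at 168h and 37.0% at 144h, and the share of Nhlh1 19.4% at 168h and 12.9% at 144h. Insm1 and Neurog1 lay close together at 168h, and so did Neurod1 and Myt1, with no replicate to order them.

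InvClone1 had a further library at 144h, replicate 2 (ISML_second), the one with few mitochondrial reads, and it differed from replicate 1 (ISML_third) by more than counting error for 5 of the 7 genes. Its Myt1 level was 9.53-fold that of replicate 1 (counting interval 4.56 to 23.0), its Neurog1 level 4.42-fold (3.07 to 6.49), its Insm1 level 1.76-fold (1.27 to 2.45) and its Neurog2 level 1.28-fold (1.07 to 1.52). Its Neurod4 level was 0.497-fold (0.406 to 0.607), the other way round. For Neurod1 (0.990, 0.571 to 1.71) and Nhlh1 (1.06, 0.799 to 1.40) the counting interval includes equality. The part of the library name and of the mitochondrial share in these differences was not tested. For Neurog1 and Myt1 these ratios exceed those between the highest and the lowest of the 5 lines described next, 2.705 and 2.57. It was not counted how many of all genes differ between replicates 1 and 2 by more than counting error.

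At 144h each line had 1 ISML_second library, so levels between lines are described with counting error only. InsDel8to10 was highest of the 5 lines in all 7 genes. How many of all genes were highest in this line was not counted. Insm1 stood out most, with 20.2 CPM (95% Poisson interval 18.4 to 22.2) in InsDel8to10, 6.72 CPM in InvDel7to10, 4.997 in InvClone1, 4.91 in Ins and 7.78 (6.68 to 9.01) in Del, a 2.60-fold lead over the next line. Neurog1 had 14.4 CPM in InsDel8to10, 8.19 in InvDel7to10, 7.44 in InvClone1, 5.33 in Ins and 6.35 in Del. Nhlh1 was 1.71-fold, Myt1 1.55-fold and Neurod1 1.498-fold above the next line. For Neurog2 the lead was nominal, 22.5 CPM in InsDel8to10 (20.6 to 24.6) and 22.2 CPM in Del (20.3 to 24.2), with overlapping intervals, and for Neurod4 it was 20.98 CPM (19.1 to 23.0) and 18.1 CPM (16.4 to 20.0).

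The order of the other lines was not the same from gene to gene. Neurod4 was lowest in InvClone1 at 7.39 CPM (6.23 to 8.71), below Ins at 11.8 CPM (10.46 to 13.3), while Neurog2 was lowest in Ins at 12.35 CPM (10.98 to 13.9), an interval that overlaps that of InvClone1 at 14.1 CPM (12.5 to 15.9). InvClone1 was second for Myt1 at 3.38 CPM and last for Neurod1, Neurod4 and Nhlh1. Neural progenitor markers summed to 1010 CPM in InsDel8to10, 1002 in InvDel7to10, 1353 in InvClone1, 645 in Ins and 1000.0 in Del. Early neuron markers summed to 494 CPM in InsDel8to10, 341 in InvDel7to10, 330 in InvClone1, 250 in Ins and 294 in Del. InsDel8to10 was therefore highest in the members and in the early neuron markers and close to InvDel7to10 and Del in progenitor markers, and the part of neuron number in its lead was not tested.

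**Figure D4:**
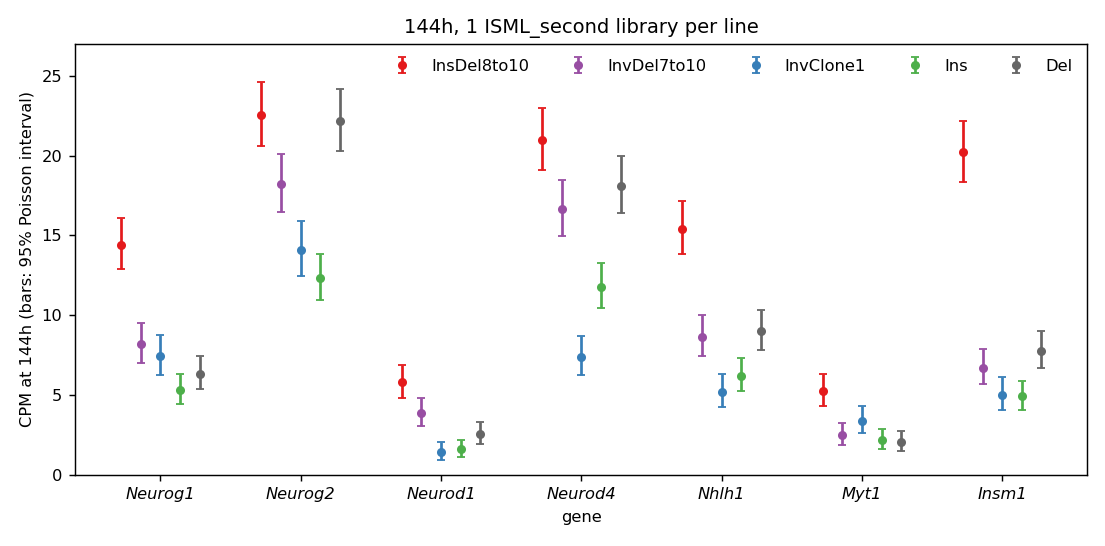
Levels of the 7 genes at 144h in CPM, 1 ISML_second library per line; bars are exact 95% Poisson intervals, which cover counting error only. InsDel8to10 is the highest point for every gene, from 2.60-fold above the next line in Insm1 to level with Del in Neurog2. The share of all genes highest in this line was not counted.

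At 120h the genes differed in how often they were seen at all. Neurod1 had 5 to 31 counts in each of the 18 libraries (median 12.5) and was never at 0. Neurog2 had 1 to 48 counts (median 11), and Insm1 1 to 21 counts (median 4). Neurod4 was at 0 in 5 libraries, Neurog1 in 7 and Nhlh1 in 9. Myt1 never exceeded 2 counts. Neurog2 had 19 to 48 counts in the 5 ISML_second libraries and 1 to 29 in the other 13. In CPM these ranges were 0.888 to 1.85 and 0.0477 to 1.315, and they overlap. Neurod1 had 7 to 23 counts in ISML_second and 5 to 31 in the rest. InsDel8to10 and InvDel7to10 had only ISML_second libraries, and the part of line and of library name was not tested.

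**Figure D5:**
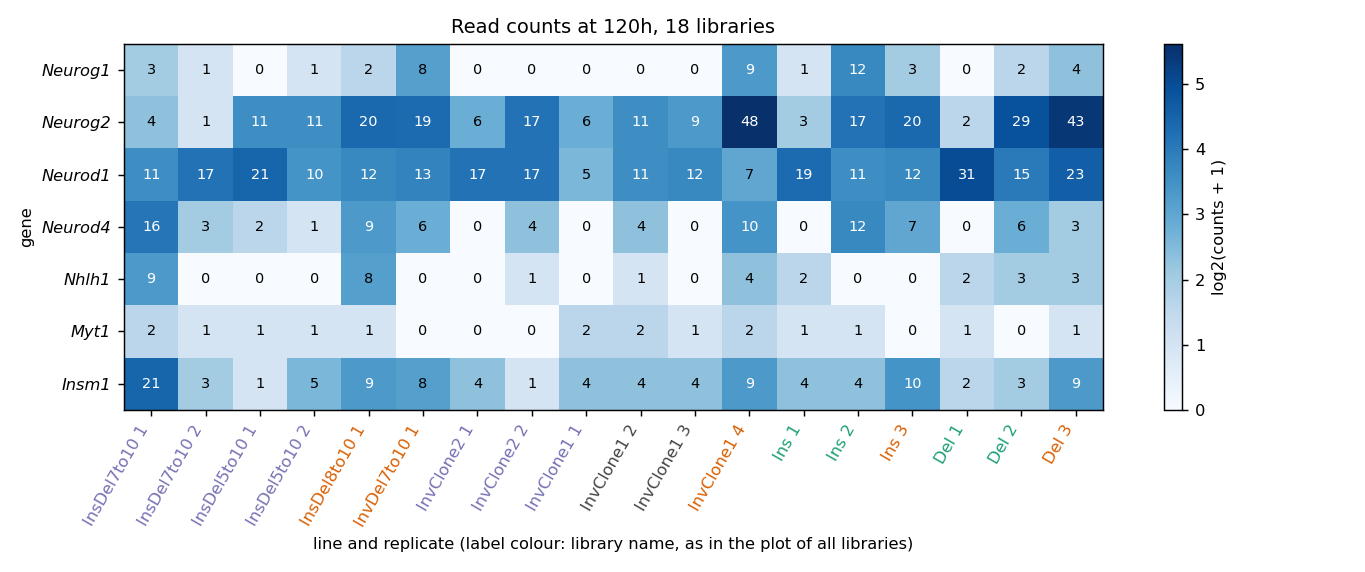
Read counts of the 7 genes in the 18 libraries at 120h; the number in each cell is the count, the shade is log2(counts + 1), and columns are lines with replicate numbers, their labels coloured by library name. Neurod1 is filled in every column, Myt1 nowhere above 2, and replicate 1 of InsDel7to10 has the most counts of Neurod4 (16), Nhlh1 (9) and Insm1 (21).

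Line comparisons at 120h used all 26 libraries with terms for group and library name, and all 7 genes passed its filter on low counts, Neurog1 and Myt1 only with their 144h and 168h libraries. Inserting the segment was addressed by Ins against Del. Neurog2 had 3, 17 and 20 counts in the Ins libraries and 2, 29 and 43 counts in the Del libraries, replicates 1 and 2 being ISML_first and replicate 3 ISML_second in both lines. Neurod1 had 19, 11 and 12 counts in Ins and 31, 15 and 23 counts in Del. Ins was lower than Del in each same-numbered pair for Neurod1 (log2 fold change -0.77 ± 0.37, edgeR adjusted p = 1), while Neurog2 overlapped (-0.87 ± 0.78, adjusted p = 1). How many of all genes keep the same direction in every pair was not counted. None of the 7 passed in edgeR, 0 of 7 had an unadjusted p under 0.05 and 0 of 7 passed in DESeq2, where 0.00563% of all genes, 1 gene, passed in edgeR. With the replicate number as a block, 2 genes passed over all and 0 of the 7.

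Inversion of the segment was addressed by InvClone1 against Ins. Neurog2 had 6, 11, 9 and 48 counts in InvClone1 and 3, 17 and 20 in Ins (log2 fold change 0.51 ± 1.00, edgeR adjusted p = 1). The value of 48 came from replicate 4, the only ISML_second library of InvClone1 at 120h, and without it the fold change was -1.41. Neurod1 had 5, 11, 12 and 7 counts in InvClone1 and 19, 11 and 12 in Ins (-1.10 ± 0.60, adjusted p = 1). In CPM Neurod1 ran from 0.231 to 0.387 in InvClone1 and from 0.421 to 0.679 in Ins. How many of all genes separate in this way was not counted. At 120h these lines share only the name ISML_second, so line and library name are not fully separated. None of the 7 passed in edgeR or DESeq2, and 0 had an unadjusted p under 0.05, beside 0.0169% of all genes, 3 genes, that passed in edgeR. Without InvClone1 replicate 4, 303 of all genes passed and 0 of the 7.

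The other 3 comparisons were between lines named ISML_third, with 2 libraries each. InsDel5to10 against InvClone2 gave no call among the 7 in edgeR or DESeq2 and none at an unadjusted p under 0.05, beside 0.152% of all genes (0.129% higher and 0.0225% lower). Neurog2 had 11 and 11 counts in InsDel5to10 and 6 and 17 in InvClone2 (log2 fold change 0.09 ± 1.05, adjusted p = 0.994), and Neurod1 had 21 and 10 in InsDel5to10 and 17 and 17 in InvClone2 (0.02 ± 0.46, adjusted p = 1). Over all genes this comparison passed 3 to 9 genes when any 1 of the 4 libraries was left out and 27 with all.

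The 2 InsDel7to10 libraries differed from each other in several of the 7 genes. Neurod4 had 16 and 3 counts in InsDel7to10, against 0 and 4 in InvClone2 and 2 and 1 in InsDel5to10. Insm1 had 21 and 3 counts in InsDel7to10, against 4 and 1 in InvClone2 and 1 and 5 in InsDel5to10, and Nhlh1 had 9 and 0 counts, against 0 and 1 in InvClone2 and 0 and 0 in InsDel5to10. Replicate 1 held the highest 120h CPM of the series in all 3 genes and in Myt1 (2 counts), and replicate 2 lay among the other lines. Neurog2 ran the other way, with 4 and 1 counts in InsDel7to10 against 6 and 17 in InvClone2 and 11 and 11 in InsDel5to10. The Poisson intervals of Neurog2 in replicate 1 overlapped, 0.0598 to 0.562 CPM in InsDel7to10 and 0.101 to 0.597 CPM in InvClone2. Those of replicate 2 did not, 0.00121 to 0.266 CPM in InsDel7to10 and 0.388 to 1.067 CPM in InvClone2. The InsDel5to10 intervals, 0.275 to 0.985 and 0.235 to 0.844 CPM, overlapped those of the same-numbered InsDel7to10 libraries. Summed progenitor markers were 442 and 274 CPM in the 2 InsDel7to10 libraries and 278 and 233 CPM in InsDel5to10, and summed early neuron markers 149 and 119 CPM in InsDel7to10 and 126 and 94.2 CPM in InsDel5to10, the first replicate being the higher in each. Summed presomitic and somite markers were 1392 and 1043 CPM in InsDel7to10, against 751 and 846 CPM in InvClone2 and 617 and 712.5 CPM in InsDel5to10. Summed endocrine and gut markers were 26.01 and 9.2 CPM in InsDel7to10, against 43.6 and 106.4 CPM in InvClone2 and 45.2 and 137.6 CPM in InsDel5to10. The part of these cell types in the values of the 7 genes was not tested.

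None of the 7 passed in InsDel7to10 against InvClone2, beside 0.141% of all genes (0.113% higher and 0.0281% lower), or against InsDel5to10, beside 0.253% (0.129% higher and 0.124% lower). In each comparison 2 of the 7 had an unadjusted p under 0.05 and 0 passed in DESeq2. Of all 17769 genes, 1587 had an unadjusted p under 0.05 against InvClone2 and 1895 against InsDel5to10. The members were Insm1 and Myt1 against InvClone2, and Insm1 and Nhlh1 against InsDel5to10. Myt1 had 2 and 1 counts in InsDel7to10 and 0 and 0 in InvClone2. Against InvClone2 the log2 fold changes were 2.51 ± 0.85 for Insm1 (edgeR adjusted p = 0.39), 2.49 ± 1.76 for Neurod4 (0.754) and -1.86 ± 1.35 for Neurog2 (0.761), and against InsDel5to10 they were 2.16 ± 0.83 for Insm1 (0.38), 2.74 ± 1.86 for Neurod4 (0.66) and -1.94 ± 1.35 for Neurog2 (0.667). Neurod1 had 11 and 17 counts in InsDel7to10, 17 and 17 in InvClone2 and 21 and 10 in InsDel5to10. Without a filter on low counts, or without replicate 2 of InsDel7to10, some of these genes passed. Without replicate 2, 1 member (Insm1) passed against InvClone2 and 2 (Insm1 and Nhlh1) against InsDel5to10, where 155 and 939 of all genes passed. Against InvClone2, 295 of all genes passed without replicate 1 of InsDel7to10 and 0 without either InvClone2 library. Against InsDel5to10, 7 passed without replicate 1 of InsDel7to10, and 3 and 12 without replicates 1 and 2 of InsDel5to10.

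Among the 123 pathway and marker genes listed beside the members, 1 passed in any of the 5 line comparisons. Heyl, a Notch target, was higher in InsDel7to10 than in InsDel5to10, with a log2 fold change of 2.50 ± 0.35 (adjusted p = 0.0121). It did not pass against InvClone2 (0.89 ± 0.33, adjusted p = 0.43) or between stages (0.24 ± 0.12, adjusted p = 0.24).

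Across the 26 libraries the 7 genes followed each other closely, which is a description since the libraries share stage and library name. Pearson's r of log2(CPM + 0.5) ran from 0.817 between Neurog2 and Neurod1 to 0.987 between Neurod4 and Nhlh1 (n = 26 libraries). Among 12237 genes with a mean of at least 1 CPM, the genes most like Neurog1 were Celf3 (0.984) and Elavl3 (0.981). Those most like Neurog2 were Fgfr3 (0.968), Vit (0.958) and Ntrk2 (0.958), none of which was among the 3 nearest of another member. Neurod1 was nearest to St18 (0.940), Nhlh2 (0.930) and Scrt2 (0.928), the lowest values of the 7, and Neurod4 to Pou3f4 (0.971), Dcx (0.966) and Elavl3 (0.963). Nhlh1 was nearest to Celf3 (0.980), Dcx (0.976) and Glra1 (0.975), Myt1 to Nhlh2 (0.989), St18 (0.987) and Celf3 (0.977), and Insm1 to Celf3 (0.981), Scrt2 (0.980) and Rhbdl3 (0.975). Celf3, which encodes a neuronal RNA-binding protein, was thus among the 3 nearest of 4 members.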

How the data were processed

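Whole-number read counts per gene, not normalized, and FPKM values from Cufflinks were deposited by the authors for 26 libraries. The submitters' processing notes name STAR 2.7.10a, cutadapt 1.18, Cufflinks 2.2.1 and the build mm10. The table's name gives HTSeq as the counter, with strand setting and annotation not given in the sources used here, so reads of overlapping or antisense genes cannot be told apart. Per the labels 2 libraries were made with TruSeq Stranded mRNA and the others with the ISML kit. Of the columns in both tables, 8 matched no sample and were not used.

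The count tests were made in R 4.3.3 with edgeR 4.0.16 (TMM, quasi-likelihood test, minimum count 10, Benjamini-Hochberg adjustment, threshold 0.05). Line comparisons came from 1 fit of 26 libraries with group and library name as terms (17769 genes, 8 residual degrees of freedom), where groups of 1 library take the spread of the replicated ones. For the stages, stage and line were the terms over 10 ISML_second libraries (4 residual degrees of freedom, 16043 genes). No fold is given where both groups averaged 3 counts or fewer. Also tried were no filter, a minimum count of 50, DESeq2 1.42.0 or only its size factors, no library or line term, the compared libraries alone, a replicate block, an added InvClone1 pair and each library or line left out.

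Same-numbered Ins and Del libraries share library names, and their deviations from the group means correlated at 0.599, 0.361 and 0.733 for replicates 1, 2 and 3. The library name was not removed from these deviations, and differently numbered libraries were not compared. The correlations therefore cannot show whether the numbers pair the libraries. Outside the fits with a replicate block, replicates are taken as independent. The 95% intervals (exact, Poisson or of a ratio of counts) and the floor of 3 counts hold for counting error only, as reads lack molecular identifiers.

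Genes named were the 7 members, up to 4 genes with the smallest adjusted p in each list with a gene past the threshold, and the 3 genes most like each member; other genes named, such as those that alone fell in a list, and marker genes given at low counts were chosen after their values were seen. The members and the 10 lists (123 genes) were chosen with earlier results of these data known. A few listed genes are not reported here by name. Promoter windows came from a RefSeq table.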

Additional observations from a re-analysis of the deposited data

Results flagged for a closer look

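Of the 7 genes tested for a library far from the others in the 4 InvClone1 libraries at 120h, 2 had such a library. Chance gives about 1 in 20 groups for normally distributed values, a rate that does not hold for Neurog1, where 3 libraries at 0 fix the outcome. Whether it holds for the CPM of Neurog2 was not tested. Both times the library far from the others was replicate 4, the only one of the 4 named ISML_second. Neurog1 had 0.3475 CPM there (9 counts) and 0 counts in the other 3 libraries. Neurog2 had 1.853 CPM (48 counts), against 6, 11 and 9 counts in the other 3. The other 4 ISML_second libraries at 120h had 2 to 8 counts of Neurog1 and 19 to 43 counts of Neurog2, and the part of the library name was not tested.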

How the results depend on the processing

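The stage call of the 7 genes held in all 11 alternatives, with log2 fold changes from 1.97 (Neurod1) to 6.75 (Myt1), and over all genes 1424 to 4934 passed when 1 line was left out, against 2429. In the line comparisons 0 of 7 passed in any alternative for Ins against Del, InvClone1 against Ins and InsDel5to10 against InvClone2. For InsDel7to10, members passed with no filter and with 1 replicate left out. With no filter 2 passed against InvClone2 (Neurod4 and Insm1) and 3 against InsDel5to10 (Neurod4, Nhlh1 and Insm1), and when each library was left out in turn 0 to 1 and 0 to 2 passed. The cause was not tested.

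Counts over all genes moved as follows. With no filter 89 genes passed in Ins against Del, 9 in InvClone1 against Ins, 383 in InsDel5to10 against InvClone2, 554 in InsDel7to10 against InvClone2 and 957 in InsDel7to10 against InsDel5to10. In the last 3 comparisons DESeq2 passed 48, 161 and 292 genes, and no library term left 6, 0 and 7. With the compared libraries alone 0 genes passed in Ins against Del, 0 in InsDel7to10 against InvClone2 and 4 in InsDel7to10 against InsDel5to10. Leaving out each library gave 3 to 303 genes in InvClone1 against Ins, 3 to 9 in InsDel5to10 against InvClone2, 0 to 295 in InsDel7to10 against InvClone2 and 3 to 939 in InsDel7to10 against InsDel5to10.

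With the replicate block 2 genes passed in Ins against Del, 0 in InvClone1 against Ins, 932 in InsDel5to10 against InvClone2, 0 in InsDel7to10 against InvClone2 and 3 in InsDel7to10 against InsDel5to10. Deviations of same-numbered libraries correlated at 0.192, 0.475 and 0.082 for InvClone1 with Ins, which share a number but no library name. Between the ISML_third lines they correlated at 0.405, -0.266 and -0.173. The block passed 0 members.

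Directions that turned belong to genes that did not pass, at log2 fold changes near 0 or few counts. For InvClone1 against Ins, Neurog1 (0.25) became -1.32 with no library term, -0.24 in DESeq2 and -5.55 with the replicate block, and Neurog2 (0.51) became -0.73 with the block, while Neurod4 (-0.60) became 0.36 without the replicates 2 of InvClone1. With the block Neurod1 became -0.0312 in InsDel5to10 against InvClone2 and 0.0622 in InsDel7to10 against InsDel5to10. Leaving out 1 library, the range was -3.40 to 0.53 for Neurog1, -1.41 to 0.96 for Neurog2 and -6.85 to 0.37 for Neurod4 in InvClone1 against Ins, and -1.51 to 0.0915 for Neurog2 and -0.0942 to 2.24 for Neurod4 in Ins against Del. It was -0.38 to 0.88 for Neurog2 and -0.74 to 0.54 for Neurod1 in InsDel5to10 against InvClone2, -0.25 to 0.17 for Neurod1 in InsDel7to10 against InvClone2 and -0.56 to 0.72 for Neurod1 in InsDel7to10 against InsDel5to10. Depth limits the 120h comparisons, since the median counts per library there were 0.5 to 12.5 over the 7 members.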
